A study of Homo sapiens with 18 samples.

Results

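Long intergenic non-coding RNAs and the host transcripts of microRNAs were examined in THP-1, a human acute monocytic leukaemia line that grows in suspension. The members were the rows of the count matrix whose symbol is LINC followed by a number, or starts with MIR and ends with HG, with a mean of at least 1 CPM over the 18 libraries. CPM are counts per 1000000 counts of a library, for this rule from the raw library totals. The members were thus chosen by their mean count level, and levels are given as a description only. Of the 63677 rows of the matrix 2185 carried such a symbol, 1074 of these had a count in any library, and 143 reached the limit. Of the 143 members 125 were LINC genes and 18 were microRNA hosts, and 140 were annotated as lncRNA while 3 were transcribed unprocessed pseudogenes. By the annotation of GRCh37, 23 members overlap a coding gene over some of their length, and 10 overlap a gene on the opposite strand within their last 500 exonic bases, where reads could belong to either because the strand setting of the counting is not given in the sources used here. Just inside the limit lay LINC02447 at 1.03, LINC02985 at 1.03 and LINC01843 at 1.01 CPM, and just outside it LINC01521 at 0.993, LINC01664 at 0.981 and LINC00311 at 0.978 CPM.

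The study asked what the loss of TRAFD1, a gene named for its TRAF-type zinc finger, does to the transcriptome of THP-1 at rest and under lipopolysaccharide (LPS), the bacterial cell wall component sensed through TLR4. All groups were THP-1 cells that, 72 h after transfection, were kept for 4 h with medium alone (unstimulated) or with LPS of E. coli at 10 ng/ml. The KD groups had received 25 nM of 1 siRNA to TRAFD1, the SCR groups 25 nM of a non-targeting siRNA, and the WT groups no siRNA. The labels disagree on WT, since the series text calls these cells untreated and the treatment protocol gives them the transfection mix without siRNA, so that an effect of the siRNA and an effect of the transfection mix cannot be told apart in a comparison with WT. There were 3 libraries in each of the 6 groups, with the numbers 1 to 3 given to unstimulated and 4 to 6 to stimulated ones. The labels speak of triplicates of 1 cell line without a passage or day. The p-values thus measure the spread between such libraries within a group, taken over all 6 groups in 1 fit.

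A LINC gene is a transcription unit named for its place between protein-coding genes, whose spliced and usually polyadenylated RNA has no long open reading frame, and few of these genes have a known function. A microRNA host is a longer primary transcript from which DROSHA and DGCR8 cut a hairpin in the nucleus, which DICER1 then trims to a mature microRNA of about the length of an siRNA. The mature strand guides an Argonaute protein to messenger RNAs that pair with its seed, the bases 2 to 8. In monocytes and macrophages miR-146a and miR-155 are textbook examples of microRNAs whose hosts are switched on through Toll-like receptors. The libraries counted the 3′ ends of polyadenylated RNA, so that the values below are levels of the host transcript and not of the mature microRNA.

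The mature strands behind the hosts that the results turn on are shown first, with the seed in capitals, because the host symbol does not tell which targets its product could pair with. Of the 18 hosts, 16 enclosed a mature microRNA by the RefSeq coordinates of GRCh38.p14, with 54 mature strands and 47 distinct seeds in all. MIR3667HG and MIR124-1HG were not matched.
hsa-miR-146a-5p, in MIR3142HG: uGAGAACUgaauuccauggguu
hsa-miR-3142, in MIR3142HG: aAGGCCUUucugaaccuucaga
hsa-miR-155-5p, in MIR155HG: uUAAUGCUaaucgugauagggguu
hsa-miR-22-3p, in MIR22HG: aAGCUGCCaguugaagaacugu
hsa-let-7a-5p, in MIRLET7BHG: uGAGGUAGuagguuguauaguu
hsa-let-7b-5p, in MIRLET7BHG: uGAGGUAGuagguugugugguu
hsa-miR-221-3p, in MIR222HG: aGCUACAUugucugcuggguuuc
hsa-miR-222-3p, in MIR222HG: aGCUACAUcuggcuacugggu
hsa-miR-23a-3p, in MIR23AHG: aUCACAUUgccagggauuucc
hsa-miR-27a-3p, in MIR23AHG: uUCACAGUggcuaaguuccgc
hsa-miR-142-3p, in MIR142HG: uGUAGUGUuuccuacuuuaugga
hsa-miR-1915-3p, in MIR1915HG: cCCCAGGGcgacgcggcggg

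On GRCh38.p14 the strand of miR-146a-5p lies at chr5:160485372-160485393 on the plus strand, and that of miR-3142 at chr5:160474492-160474513 in the same host. The strand of miR-155-5p lies at chr21:25573983-25574006 on the plus strand and that of miR-22-3p at chr17:1713914-1713935 on the minus strand. The 2 strands let-7a-5p and let-7b-5p of MIRLET7BHG share a seed, as do miR-221-3p and miR-222-3p of MIR222HG, and no seed was shared between 2 different hosts. In MIR17HG 3 pairs of strands shared a seed, among them miR-17-5p with miR-20a-5p and miR-19a-3p with miR-19b-3p.

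The members held between 0.107% and 0.150% of the counts of a library. Their median level was 2.88 CPM, with 26 members at 10 CPM or more and 93 under 5 CPM. Total counts ran from 8206023 to 22344279 per library, so that the 3 counts which a count of 0 still allows were worth 0.134 to 0.366 CPM. This floor covers counting error only. Counts were seen in all 18 libraries for 139 members, and 104 members had a mean of at least 1 CPM in every group. From here on CPM are scaled by TMM, the trimmed mean of M-values, and each value is a level that is not divided by length, because a 3′ method gives about 1 fragment per transcript. The members varied more where they were low: the median coefficient of variation between the 3 libraries of a group was 13.6% for members at 10 CPM or more, 18.5% for those from 5 to under 10 CPM and 31.9% for those under 5 CPM.

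The labels were checked on genes outside the list. TRAFD1 lay at 20.5 ± 1.99 CPM in WT, 23.7 ± 3.38 in SCR and 8.66 ± 3.13 in KD without LPS (SD, n = 3 libraries), a log2 fold change of -1.45 ± 0.23 (SE) of KD against SCR (edgeR adjusted p = 0.0277). With LPS it lay at 17.0 ± 4.75 CPM in WT, 22.7 ± 4.42 in SCR and 14.5 ± 1.12 in KD, where the log2 fold change of -0.65 ± 0.22 did not pass (edgeR adjusted p = 0.262). Against WT, KD was called lower without LPS at -1.23 ± 0.23 but did not pass with LPS at -0.23 ± 0.23 (edgeR adjusted p = 0.00156 and 0.563). Within KD, TRAFD1 was called higher with LPS at 0.73 ± 0.23 (edgeR adjusted p = 0.0456). TNF, IL1B, CXCL8, CXCL10 and NFKBIA were all called higher with LPS in WT, SCR and KD, with log2 fold changes from 1.40 to 6.96. Of 12 monocytic marker genes 11 reached a mean of 1 CPM, CEBPA being the exception at 0.0217 CPM on average, and the summed level of the list ran from 770.7 to 1133 CPM over the libraries. The 4 T cell and 3 erythroid markers summed to at most 0.615 and 0.126 CPM in a library, the 3 epithelial ones to at most 0.603 CPM and the 3 fibroblast ones to at most 3.57 CPM, led by COL1A1.

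All 143 members passed the filter on low counts and were tested with the 16678 genes of the fit. A gene is named as called where the adjusted p of edgeR's quasi-likelihood test over all genes was under 0.05. With LPS, 20 members were called in WT, 14 higher and 6 lower, against 14.3% of all genes called, 7.01% higher and 7.26% lower. In SCR 20 members were called, 8 higher and 12 lower, where 17.2% of all genes were called, 8.64% higher and 8.56% lower. In KD it was 10 members, 5 in each direction, where 11.5% of all genes were called, 6.41% higher and 5.05% lower. As a share of the 143 members these counts were 14.0%, 14.0% and 6.99%, near or under the background in each condition. Among protein-coding genes 16.4%, 18.5% and 13.4% were called in WT, SCR and KD, and among the 1329 other lncRNA genes tested 6.55%, 11.1% and 4.74%. In bulk RNA fewer cells that express a gene and less RNA per cell cannot be told apart.

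The share of members called was highest among those at 10 CPM or more, but in SCR and KD it did not rise steadily with the level. Of the 26 members at 10 CPM or more 42.3% were called in WT, 42.3% in SCR and 19.2% in KD, with a median SE of 0.183 on the log2 scale in WT. Of the 24 members from 5 to under 10 CPM 16.7%, 0.0% and 0.0% were called, with a median SE of 0.253 in WT. Of the 93 members under 5 CPM 5.38%, 9.68% and 5.38% were called, with a median SE of 0.447 in WT. Shares of all genes at the same levels were not computed, so that these shares have no background of their own. The groups with and without LPS did not overlap for 52 members in WT, 50 in SCR and 28 in KD, against 32.6%, 37.2% and 25.5% of all genes. The median log2 fold change of the members stood at -0.14 for WT, -0.24 for SCR and -0.21 for KD, beside -0.03, -0.03 and 0.00 for all genes.

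**Figure D1:**
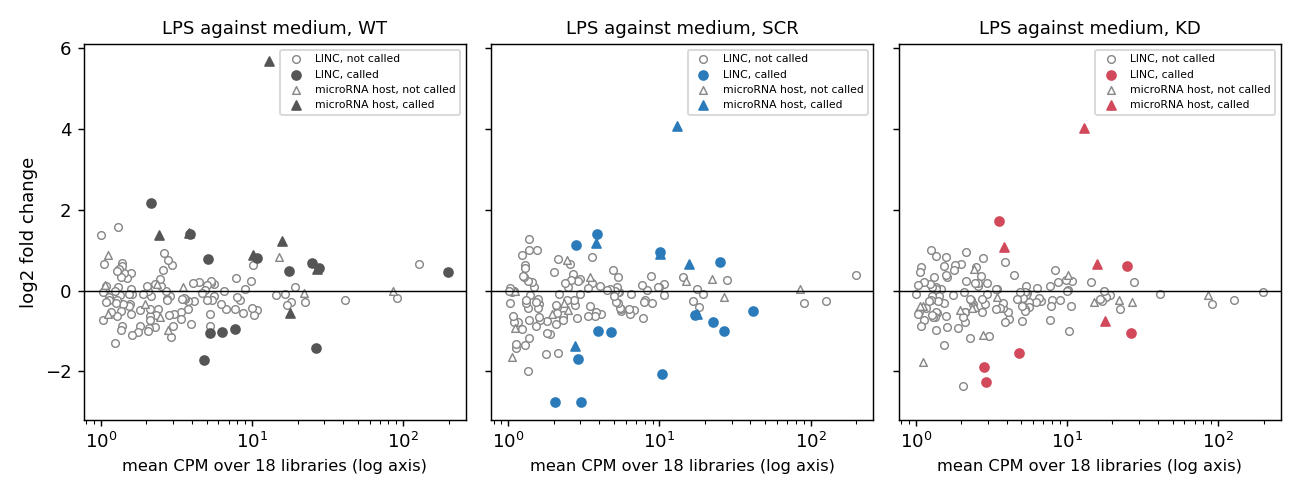
The log2 fold change of each of the 143 members with LPS (vertical axis) against its mean CPM over the 18 libraries (horizontal log axis), for WT, SCR and KD; circles are LINC genes, triangles microRNA hosts, and filled marks have an adjusted p under 0.05. Open marks scatter more widely towards 1 CPM, and the host MIR3142HG stands highest in each panel.

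Called higher in all 3 conditions were 4 members, MIR3142HG, MIR155HG, MIR22HG and LINC00324, and called lower in all 3 were LINC00662, LINC02982 and MIR1915HG. Of all genes 2.82% were called higher and 2.38% lower in all 3. No member was called higher in 1 condition and lower in another. In at least 1 condition 17 members were called higher and 16 lower, 33 in all, where 13.5% of all genes were called higher, 13.4% lower and 26.9% in either direction. A mean of at least 1 CPM over the 9 libraries without LPS held for every member called higher, so that none of these entered the list through the stimulated libraries alone, whereas LINC01994, called lower in SCR, was under 1 CPM over the 9 libraries with LPS.

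**Figure D2:**
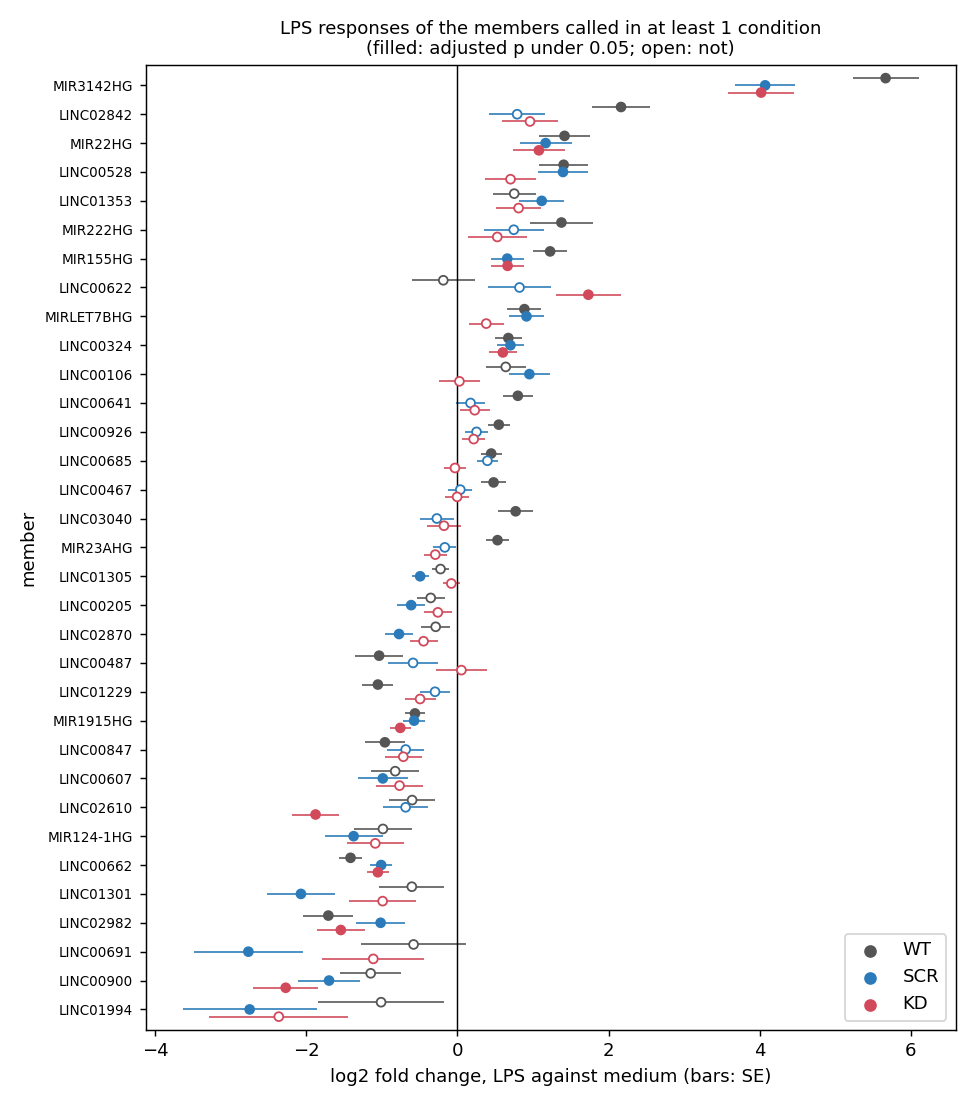
The log2 fold change with LPS (horizontal axis, bars are SE) of the 33 members called in at least 1 condition, for WT in grey, SCR in blue and KD in red; filled points have an adjusted p under 0.05. MIR3142HG lies between 4.02 and 5.67, and LINC00662, LINC02982 and MIR1915HG are filled to the left of 0 in all 3 conditions.

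Among the microRNA hosts MIR3142HG, the long primary transcript of miR-146a, rose most. It is annotated at chr5:159865601-159914433 on the plus strand of GRCh37. Without LPS its level was 0.452, 1.54 and 0.400 CPM in WT, 1.38, 1.64 and 1.61 in SCR and 0.0671, 2.23 and 0.544 in KD, which are between 1 and 31 counts per library. With LPS it was 34.3, 38.7 and 33.7 CPM in WT, 25.9, 25.5 and 25.8 in SCR and 14.6, 14.7 and 14.7 in KD. Every stimulated library lay above every unstimulated one, and with LPS the 3 conditions did not overlap, with WT highest and KD lowest. The fitted log2 response was 5.67 ± 0.44 (SE) for WT, 4.07 ± 0.40 for SCR and 4.02 ± 0.44 for KD, with edgeR adjusted p of 4.1e-09, 2.3e-07 and 1.4e-06. The difference of the WT and SCR responses, -1.59 ± 0.62, did not pass (edgeR adjusted p = 0.445) but was called at an adjusted p of 0.00909 when low counts were not filtered, and under LPS KD lay below WT by a log2 of -1.28 ± 0.32 (edgeR adjusted p = 0.0150) but not below SCR by the test (-0.81 ± 0.32, edgeR adjusted p = 0.324). The call of KD against WT was lost with DESeq2 and without KD library 4, KD library 5 or WT library 6 (adjusted p up to 0.120), and the call against SCR was gained when only these 2 groups were fitted (adjusted p = 0.00992) and without the filter (0.00498).

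MIR155HG, the host of miR-155 once cloned as BIC, also rose with LPS but started from unequal levels. Without LPS it lay at 7.68, 6.44 and 7.42 CPM in WT, at 15.4, 11.4 and 14.2 in SCR and at 18.1, 14.6 and 8.93 in KD. With LPS it lay at 14.9, 20.4 and 15.4 CPM in WT, at 20.3, 26.7 and 18.04 in SCR and at 26.4, 20.6 and 19.3 in KD. All 3 stimulated groups lay above their own unstimulated group, and the unstimulated SCR and KD libraries lay above all 3 of WT. The LPS response on the log2 scale was 1.23 ± 0.22 for WT, 0.66 ± 0.22 for SCR and 0.66 ± 0.21 for KD (edgeR adjusted p = 5.5e-04, 0.0385 and 0.0493). The WT call held under all 11 alternatives. The SCR call was lost in 6 of 11 alternatives (adjusted p up to 0.194), with raw library totals and without SCR library 1, 2, 3, 4 or 5, and the KD call in 7 (up to 0.237), among them leaving out KD library 2, 3, 4, 5 or 6.

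MIR22HG, the host of miR-22, rose from 2.32 ± 0.551 CPM to 6.14 ± 0.876 in WT, from 2.32 ± 0.846 to 5.12 ± 1.24 in SCR and from 2.28 ± 1.18 to 4.86 ± 1.05 in KD (SD, n = 3). Its stimulated and unstimulated libraries did not overlap in any condition, although KD library 1 without LPS, at 3.62 CPM, came close to KD library 4 with LPS at 3.67 CPM. In log2 this was a change of 1.42 ± 0.34, 1.17 ± 0.35 and 1.08 ± 0.34 (edgeR adjusted p = 0.00651, 0.0227 and 0.0462). The WT call held under all 11 alternatives, the SCR call was lost without SCR library 1, 2 or 5 (adjusted p up to 0.131), and the KD call without KD library 2, 3, 5 or 6, with raw library totals and when only the KD libraries were fitted (up to 0.198).

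MIRLET7BHG, which encloses let-7a-3 and let-7b of the let-7 family, lay at 6.32, 8.43 and 10.2 CPM in WT without LPS and at 15.7, 15.02 and 15.5 with it. In SCR it went from 5.15, 9.94 and 6.46 CPM to 14.2, 10.8 and 15.0002, and in KD from 5.57, 8.83 and 7.69 to 9.86, 9.59 and 9.21. The groups did not overlap in any condition, and WT and SCR passed, with log2 fold changes of 0.89 ± 0.23 and 0.91 ± 0.23 against 0.38 ± 0.23 in KD (edgeR adjusted p = 0.00966, 0.00821 and 0.309). Without library 1 of the unstimulated group the adjusted p was 0.0618 in WT and 0.0665 in SCR. Over its last 500 exonic bases 175 overlap MIR4763 and MIRLET7B on the same strand, so that reads there could be assigned to either.

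MIR222HG, the host of miR-221 and miR-222, lay at 0.508, 1.63 and 1.42 CPM in WT without LPS and at 3.21, 3.84 and 2.05 CPM with it, a log2 of 1.38 ± 0.41 (edgeR adjusted p = 0.0283) that was lost without WT library 1, 4 or 5 and when only WT was fitted (adjusted p up to 0.133). In SCR and KD the log2 fold change was 0.75 ± 0.40 and 0.53 ± 0.39 and did not pass. MIR23AHG, the host of miR-23a, miR-27a and miR-24-2, moved from 23.7 ± 5.49 CPM to 34.0 ± 4.02 in WT with 1 overlapping library, a log2 of 0.53 ± 0.15 (edgeR adjusted p = 0.0198) that was lost without WT library 1, 3, 5 or 6 (adjusted p up to 0.105). Its values in SCR and KD were -0.17 ± 0.15 and -0.29 ± 0.15, and neither passed.

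MIR1915HG was the host that fell with LPS in all 3 conditions. Without LPS it lay at 27.9, 31.6 and 29.8 CPM in WT, at 17.0, 17.1 and 17.5 in SCR and at 16.0, 18.4 and 17.2 in KD. With LPS it lay at 20.4, 17.9 and 22.2 CPM in WT, at 13.2, 10.3 and 11.3 in SCR and at 8.73, 10.2 and 11.5 in KD. Within each condition the 2 groups did not overlap, and WT lay above SCR and KD in both states. The log2 fold change with LPS was -0.56 ± 0.14, -0.57 ± 0.14 and -0.76 ± 0.14 (edgeR adjusted p = 0.00652, 0.00710 and 0.00109), and these calls held under all 11 alternatives of each condition. MIR124-1HG, at 4.19 ± 1.61 CPM in SCR without LPS and 1.56 ± 0.348 with it, was called in SCR at a log2 of -1.37 ± 0.38 (edgeR adjusted p = 0.0158), which was lost without SCR library 2, 3, 4 or 6 (adjusted p up to 0.0822), while WT at -0.99 ± 0.38 and KD at -1.09 ± 0.38 did not pass, though KD did with DESeq2 and without KD library 1 or 6 (adjusted p from 0.0222).

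**Figure D3:**
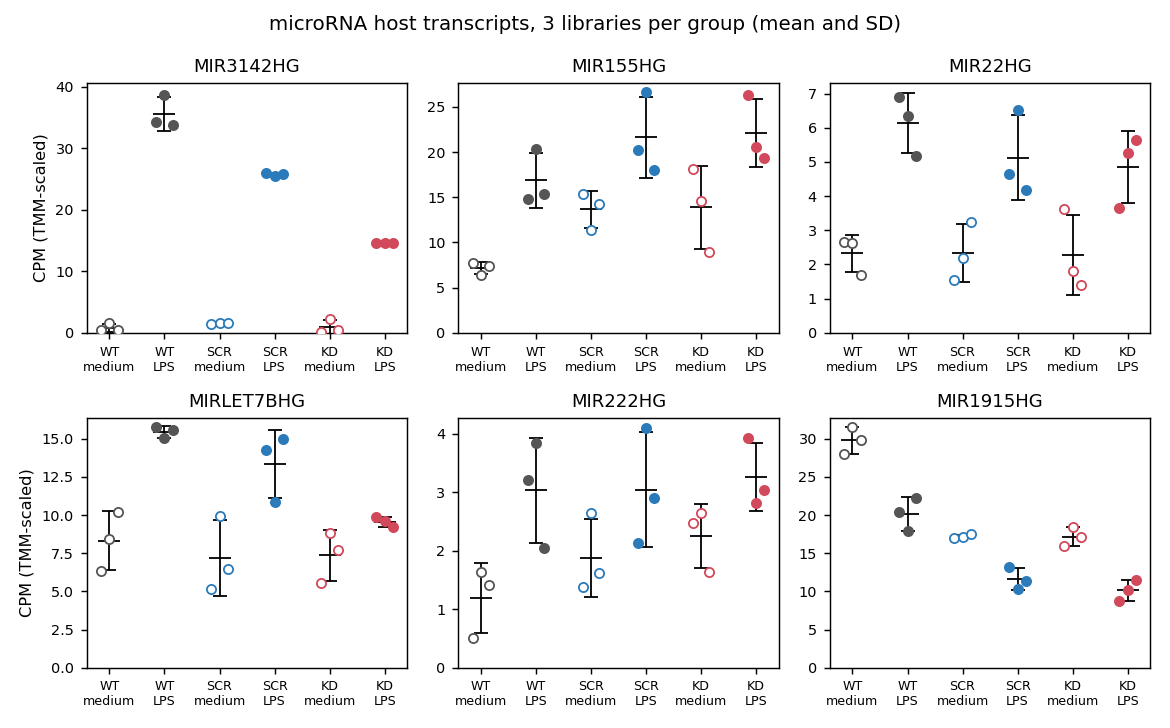
CPM of 6 microRNA hosts in each of the 18 libraries (vertical axis from 0), by condition and treatment; open points are libraries with medium, filled points with LPS, and bars are the mean and SD of 3 libraries. MIR3142HG stands between 14.6 and 38.7 CPM in the stimulated libraries and under 3 CPM in all others, and MIR1915HG is highest in WT with medium.

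Of the 18 hosts 8 were called in at least 1 LPS response and 8 in none of the 11 comparisons of edgeR, against 26.9% and 61.8% of all genes. MIR4435-2HG, the host with the most counts, lay between 80.03 and 89.3 CPM in the group means and gave log2 fold changes of 0.00 ± 0.12, 0.04 ± 0.12 and -0.12 ± 0.12 with LPS in WT, SCR and KD. MIR17HG, the host of the miR-17-92 cluster, lay between 17.3 and 25.6 CPM in the group means and at -0.07 ± 0.15, 0.28 ± 0.15 and -0.24 ± 0.15. MIR142HG, the host of the blood-cell microRNA miR-142, gave 0.82 ± 0.33 in WT, where its 3 unstimulated libraries ran from 3.22 to 15.6 CPM, and did not pass (edgeR adjusted p = 0.112) but did without WT library 2 (6.0e-04) or the filter on low counts (0.00129). MIR29B2CHG, MIR762HG, MIR3667HG, MIR646HG, MIR210HG, MIR3677HG and MIR503HG had group means between 0.522 and 4.14 CPM and were called in no comparison outside the alternatives. With DESeq2 MIR503HG was called lower with LPS in SCR (log2 -1.64, adjusted p = 0.0386). Without the filter MIR210HG was called lower with LPS in KD (edgeR adjusted p = 0.0413). MIR3667HG was then called lower in KD than in WT with LPS (0.0455), and also when only these libraries were fitted (0.0434). All of the last 500 exonic bases of MIR29B2CHG and 293 of those of MIR762HG overlap a gene on the opposite strand. MIR210HG, the host of the hypoxia-linked miR-210, stood at 7.17 CPM with 107 counts in unstimulated KD library 1 and at no more than 1.40 CPM in the other 17 libraries.

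The proximal promoters of the first 2 hosts are printed because both genes were called higher in all 3 conditions and both hold letters that match factors activated by LPS. The windows are those of RefSeq on GRCh38.p14, from 250 bases before the start to 50 bases from it, at chr5:160468001-160468300 for MIR3142HG and chr21:25561895-25562194 for MIR155HG, both on the plus strand. Capitals mark a kappaB match in the first, and in the second, from 5′ to 3′, the core of an interferon-stimulated response element (ISRE), a site of AP-1 and a TATA box.
MIR3142HG promoter: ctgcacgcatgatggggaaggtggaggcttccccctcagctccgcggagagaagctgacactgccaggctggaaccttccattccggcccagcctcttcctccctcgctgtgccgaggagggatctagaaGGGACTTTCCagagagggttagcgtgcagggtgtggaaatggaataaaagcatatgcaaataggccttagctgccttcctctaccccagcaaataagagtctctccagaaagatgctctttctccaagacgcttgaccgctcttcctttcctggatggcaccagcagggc
MIR155HG promoter: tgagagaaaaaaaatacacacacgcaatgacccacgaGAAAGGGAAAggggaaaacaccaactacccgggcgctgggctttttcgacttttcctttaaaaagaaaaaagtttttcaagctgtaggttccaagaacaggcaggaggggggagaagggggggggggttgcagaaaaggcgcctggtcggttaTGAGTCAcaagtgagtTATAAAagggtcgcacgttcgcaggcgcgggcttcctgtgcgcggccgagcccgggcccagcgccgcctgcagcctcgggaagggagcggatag

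The kappaB match of MIR3142HG starts 120 bases before the start of the gene. In MIR155HG the ISRE match starts 213 bases, the AP-1 match 60 bases and the TATA box 44 bases before the start. A RefSeq window was found for 100 of the 143 members, and 7 motifs were searched on both strands of all 35116 windows, with overlapping matches all counted. The kappaB motif was found in 5.91% of all windows and the ISRE core in 3.57%. The AP-1 site, spelled TGANTCA, was found in 7.71%, and the TATA box, spelled TATAAA, in 11.5%. A cAMP response element was in 1.85% and an E-box, spelled CACGTG, in 7.26%. Among the 12 windows of members called higher with LPS 1 held kappaB, 2 held the ISRE core (MIR155HG and MIR222HG) and 1 held the AP-1 site. Among the 14 windows of members called lower the counts were 0, 1 and 2. None of these 3 motifs was in the windows of MIR22HG, LINC00324, LINC00662, MIR1915HG or LINC02982. The CCAAT box was found in 7 of the 12, 4 of the 14 and 34.6% of all windows. The matches are letters in a window and were not tested for binding.

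Among the LINC genes that rose, LINC00324 was called in all 3 conditions. It lay at 20.2 ± 2.69 CPM in WT, 19.3 ± 4.10 in SCR and 19.04 ± 3.86 in KD without LPS, and at 32.3 ± 5.37, 31.3 ± 3.36 and 28.8 ± 4.75 CPM with it (SD, n = 3). In each condition the 3 stimulated libraries lay above the 3 others. Its log2 fold change was 0.67 ± 0.18, 0.70 ± 0.18 and 0.60 ± 0.18 (edgeR adjusted p = 0.0142, 0.0103 and 0.0358), and the KD call was lost in 5 of 11 alternatives (adjusted p up to 0.201), with raw library totals and without KD library 3, 5 or 6 among them. The WT call was lost without WT library 1, 2 or 6 (up to 0.0940) and the SCR call without SCR library 1 (0.0790). Of its last 500 exonic bases 15.4% have a near-identical copy at 1 other place of GRCh37.

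LINC00528, whose start lies 2552 bases from that of the apoptosis gene BID on the other strand, rose in WT and SCR. It lay at 3.05, 1.63 and 2.62 CPM in WT without LPS and at 6.80, 5.42 and 7.53 with it, and in SCR at 1.69, 3.28 and 2.31 and then 8.19, 5.34 and 5.45. In KD it went from 2.28, 2.48 and 1.63 CPM to 2.71, 2.70 and 5.02, also without overlap but with smaller values. The fitted log2 response was 1.41 ± 0.32, 1.40 ± 0.33 and 0.70 ± 0.33 (edgeR adjusted p = 0.00416, 0.00480 and 0.187). BID was called higher in all 3, at 1.24 ± 0.10, 0.92 ± 0.10 and 0.83 ± 0.10.

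LINC02842 lay at 0.959, 0.544 and 0.977 CPM in WT without LPS and at 3.69, 2.42 and 5.48 with it, a log2 of 2.17 ± 0.38 (edgeR adjusted p = 3.7e-04) that held under all 11 alternatives. In SCR and KD the stimulated libraries again lay above the others, but 0.79 ± 0.37 and 0.96 ± 0.37 did not pass, and the difference of the SCR and WT responses did not pass either (edgeR adjusted p = 0.442). Another 5 LINC genes were called higher in WT and in neither other condition, LINC00641 at 0.80 ± 0.20, LINC03040 at 0.77 ± 0.23, LINC00926 at 0.55 ± 0.15, LINC00467 at 0.48 ± 0.16 and LINC00685 at 0.45 ± 0.14. Each of these 5 was lost without at least 1 WT library, LINC00641 without WT library 6 (adjusted p = 0.0625), and LINC00467 in 8 of 11 alternatives. LINC00685 was called higher in SCR too with DESeq2 (log2 0.40, adjusted p = 0.0466). In edgeR it passed in SCR when only SCR was fitted (adjusted p = 0.0149), without the filter (0.00617) and without SCR library 2 (0.0437). LINC00106 and LINC01353 were called higher in SCR, at 0.95 ± 0.27 and 1.12 ± 0.30, both lost without SCR library 1 or 6 (adjusted p up to 0.1296 and 0.0777), and LINC00622 in KD at 1.73 ± 0.43. All 500 of the last exonic bases of LINC00622 have a near-identical copy elsewhere, so that its counts could belong to the copy, and its call was lost when only the KD libraries were fitted (adjusted p = 0.0698).

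LINC00662 fell in all 3 conditions. Without LPS it lay at 50.3, 34.8 and 40.9 CPM in WT, at 29.9, 37.3 and 41.8 in SCR and at 33.3, 32.3 and 27.6 in KD. With LPS it lay at 15.4, 15.4 and 16.4 CPM in WT, at 17.8, 19.1 and 17.1 in SCR and at 14.0, 15.1 and 15.7 in KD. The 9 stimulated libraries lay below all 9 unstimulated ones. The log2 fold change was -1.42 ± 0.15 in WT, -1.01 ± 0.15 in SCR and -1.05 ± 0.15 in KD (edgeR adjusted p = 4.6e-07, 5.1e-05 and 3.9e-05), and no alternative ended a call. It is annotated at chr19:28171980-28284913 on the minus strand of GRCh37, and the nearest coding start, that of UQCRFS1, is 1419145 bases away.

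LINC02982 fell from 7.14 ± 1.64 CPM to 2.18 ± 0.637 in WT, from 5.82 ± 1.56 to 2.89 ± 0.108 in SCR and from 7.84 ± 2.59 to 2.69 ± 1.17 in KD (SD, n = 3). The groups did not overlap in any condition. The fitted log2 fold change was -1.71 ± 0.33, -1.02 ± 0.32 and -1.54 ± 0.32 (edgeR adjusted p = 9.6e-04, 0.0329 and 0.00270), and the SCR call was lost without SCR library 1, 3, 4, 5 or 6 (adjusted p up to 0.127).

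LINC00900 was called in SCR and KD. It lay at 5.68, 4.56 and 4.46 CPM in SCR without LPS and at 0.882, 1.94 and 1.56 with it, and in KD at 3.22, 5.28 and 4.12 and then 1.48, 0.2996 and 0.913. In WT it went from 5.31, 2.45 and 4.13 CPM to 1.94, 2.17 and 1.27, also without overlap. Its log2 fold change was -1.70 ± 0.41 in SCR, -2.27 ± 0.43 in KD and -1.15 ± 0.40 in WT (edgeR adjusted p = 0.00566, 0.00129 and 0.0612), and the calls in SCR and KD held under all 11 alternatives, while WT passed under 5 (adjusted p from 0.0348), among them DESeq2 and leaving out WT library 2.

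**Figure D4:**
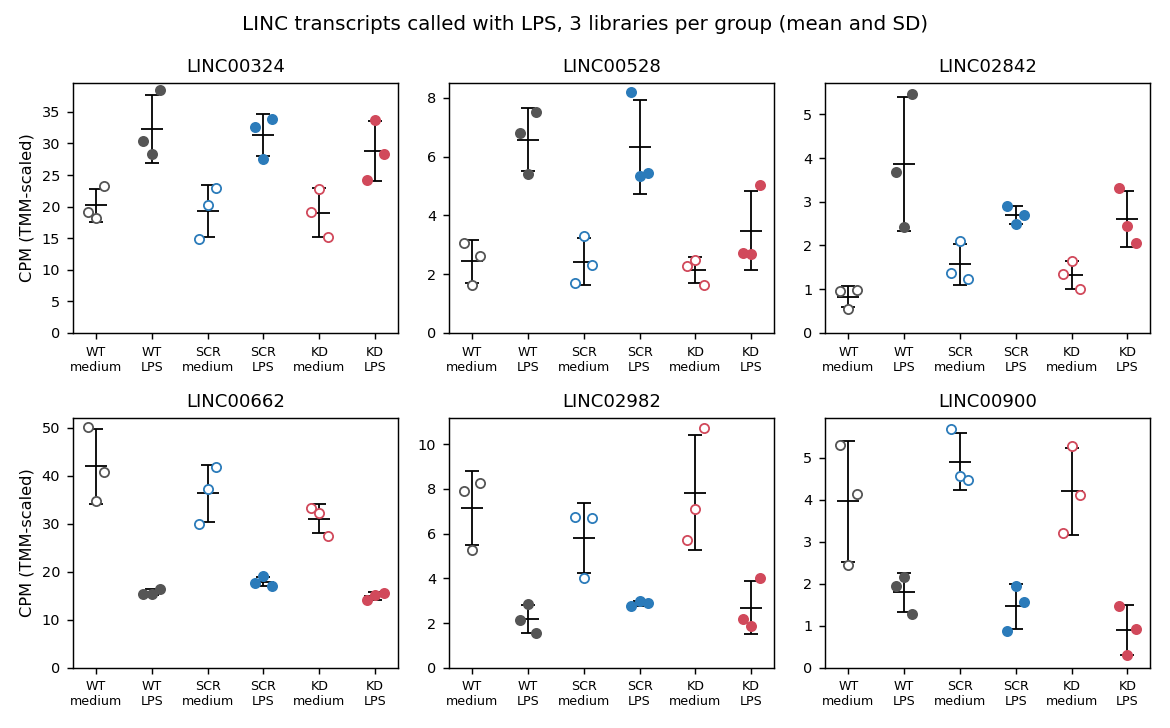
CPM of 6 LINC genes in each of the 18 libraries (vertical axis from 0), with open points for medium, filled points for LPS and bars for the mean and SD of 3 libraries. The filled points of LINC00662 lie between 14.0 and 19.1 CPM, under all open points from 27.6 to 50.3 CPM.

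Of the other falls, LINC01229 (log2 -1.05 ± 0.21), LINC00847 (-0.96 ± 0.26) and LINC00487 (-1.04 ± 0.32) were called in WT alone, and LINC02610 (-1.88 ± 0.31, edgeR adjusted p = 3.2e-04) in KD alone. LINC00847 was lost without WT library 1 or 4 (adjusted p up to 0.0959) and LINC00487 without WT library 1, 3, 4, 5 or 6 (up to 0.147). With DESeq2 LINC00847 was called lower in SCR at -0.68 and in KD at -0.73 as well (DESeq2 adjusted p = 0.0494 and 0.0373). It was also called lower in both with raw library totals (edgeR adjusted p = 0.0444 and 0.0458). LINC02610 lay at 3.08, 5.78 and 4.74 CPM in KD without LPS and at 0.960, 1.38 and 1.29 with it, while in WT and SCR it was lower by -0.60 ± 0.30 and -0.69 ± 0.30, which did not pass. In SCR alone 7 LINC genes were called lower, with log2 fold changes from -0.49 for LINC01305 to -2.77 for LINC00691. Of these LINC01305, at 47.5, 54.6 and 47.1 CPM without LPS and 34.0, 36.8 and 35.0 with it, had the smallest SE, 0.11. LINC01994, LINC01301 and LINC00691 were called lower in KD too without the filter on low counts. Their log2 fold changes were then -2.37, -0.997 and -1.12 (edgeR adjusted p = 1.4e-04, 4.3e-04 and 0.0496). In the main fit their KD response minus that of SCR was 0.39 ± 1.33, 1.08 ± 0.63 and 1.65 ± 0.99. None of these differences passed (edgeR adjusted p from 0.707). LINC01994 was also called lower in KD without KD library 2 (edgeR adjusted p = 0.0485).

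LINC01301, LINC00691 and LINC01994 had their lowest SCR value in the stimulated SCR library 4, the one with the smallest total. LINC01301 lay at 18.8, 18.1 and 17.8 CPM in SCR without LPS and at 0.504, 7.22 and 4.46 with it, and LINC00691 at 4.44, 8.94 and 5.92 CPM and then 0, 1.67 and 0.849. The calls of LINC01301 at -2.07 ± 0.45 and LINC00691 at -2.77 ± 0.73 held without that library, and that of LINC01994 at -2.75 ± 0.89 was lost (adjusted p up to 0.126 over its alternatives). Of the last 500 exonic bases of LINC00691, 257 overlap the pseudogene NPM1P23 on the same strand. Of the 143 members 12 lay in the stimulated SCR library 4 at least 2 times below both other libraries of the group, beside 14 in KD library 6 with LPS, 11 in KD library 1 without LPS and 1 to 8 in the other 15 libraries. The same count over all genes was not made.

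The difference between the responses of 2 conditions was tested directly. The test of the SCR response minus the WT response called 0 members where 0.234% of all genes were called (0.018% higher and 0.216% lower), with 13 members and 9.96% of all genes at an unadjusted p under 0.05 and 0 members called by DESeq2. Without the filter on low counts LINC01641, LINC00691, MIR3142HG and LINC01301 were called (adjusted p up to 0.0231), where 0.707% of all genes were. The test of the KD response minus the SCR response called 0 members and 0.0% of all genes in edgeR, with 8 members and 7.64% of all genes at an unadjusted p under 0.05 and 0 members called by DESeq2. The members with the smallest p for SCR against WT were MIR23AHG at -0.70 ± 0.21 (edgeR adjusted p = 0.301) and LINC03040 at -1.04 ± 0.33 (edgeR adjusted p = 0.322).

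Between the siRNA groups the direct comparison of KD with SCR gave no call in the fit over all 18 libraries, and some calls under other settings. Without LPS 0 members passed in edgeR, with 10 at an unadjusted p under 0.05, where 12.6% of all genes were, and 1 called by DESeq2, and 0.066% of all genes were called, 0.024% higher and 0.042% lower. With LPS 0 members passed in edgeR, with 11 at an unadjusted p under 0.05, where 11.8% of all genes were, and 0 by DESeq2, and 0.0% of all genes were called. Without the filter on low counts LINC01641 and MIR142HG were called without LPS (adjusted p = 4.1e-06 and 0.00986, 0.939% of all genes called), and LINC01641, MIR3142HG and LINC00685 with LPS (adjusted p up to 0.0102, 1.25% of all genes). The same 3 members were called with LPS when only the libraries of KD and SCR were fitted (adjusted p up to 0.0368, 1.05% of all genes). The groups did not overlap for 19 members without LPS and 28 with LPS, against 15.1% and 21.5% of all genes. The member that DESeq2 called was LINC01305, at 38.8, 37.8 and 32.1 CPM in KD against 47.5, 54.6 and 47.1 in SCR, where edgeR gave -0.46 ± 0.11 and an adjusted p of 0.0841.

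The comparisons with WT share the WT libraries, so that their values are given side by side. SCR against WT called 6 members without LPS, 3 higher and 3 lower, against 3.23% of all genes called, 1.78% higher and 1.45% lower, and 2 members with LPS, both lower, against 0.114%, 0.024% higher and 0.0899% lower. KD against WT called 17 members without LPS, 6 higher and 11 lower, against 11.7% of all genes, 5.85% in each direction, and 10 with LPS, all lower, against 10.8%, of which 6.29% were higher and 4.55% lower. The groups did not overlap for 33 and 26 members in SCR against WT (22.6% and 22.8% of all genes) and for 38 and 35 in KD against WT (24.3% and 35.0%). The median log2 fold change of the members was -0.06 and -0.18 for SCR and -0.16 and -0.18 for KD, where that of all genes lay between -0.01 and 0.01. These counts moved with single libraries, and the share of all genes called was not computed with a library left out. For KD against WT without LPS the count was 5 without WT library 3 and 8 without WT library 1, and with LPS it was 3 without KD library 5 or WT library 6, 4 without KD library 4 and 6 without any 1 of the others. For SCR against WT without LPS it was 1 without SCR library 1 or 3 and 2 without WT library 1 or 3, and with LPS 0 without SCR library 5 and 1 without SCR library 6, WT library 4 or WT library 6. The summed level of the monocytic markers moved with the siRNA groups too, from 770.7 to 912.7 CPM in WT, 901.2 to 1010 in SCR and 1002 to 1133 in KD without LPS, and its part in these results was not tested.

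Of the members lower with an siRNA, LINC00926 and MIR1915HG were called in all 4 comparisons with WT. LINC00926 lay without LPS at 28.2, 38.9 and 34.5 CPM in WT, 19.3, 22.2 and 20.6 in SCR and 15.1, 17.6 and 21.1 in KD. With LPS it lay at 48.2, 48.1 and 51.8 CPM in WT, 25.2, 21.2 and 27.5 in SCR and 24.5, 17.9 and 20.1 in KD. WT lay above both siRNA groups in each state, and SCR and KD overlapped. Without LPS the log2 fold change from WT was -0.71 ± 0.15 for SCR and -0.92 ± 0.15 for KD (edgeR adjusted p = 0.0118 and 6.4e-04), and with LPS -1.01 ± 0.15 and -1.25 ± 0.15 (edgeR adjusted p = 0.00724 and 2.5e-04).

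MIR1915HG, whose values stand above, lay under WT by a log2 of -0.79 ± 0.14 in both SCR and KD without LPS and by -0.80 ± 0.14 and -0.99 ± 0.14 with it (edgeR adjusted p = 0.00244, 7.6e-04, 0.0183 and 8.7e-04). The call of SCR against WT with LPS was lost for MIR1915HG in 4 of 12 alternatives, each of them without 1 library, and for LINC00926 without SCR library 5. Without LPS the SCR call of LINC00926 was lost without SCR library 1, SCR library 3 or WT library 2 (adjusted p up to 0.0713).

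LINC00685, the member with the most counts and annotated at chrX:281725-282586 of GRCh37, was called lower in KD than in WT in both states. It lay at 330.4, 268.2 and 292.8 CPM in WT with LPS, at 210.7, 187.3 and 227.3 in SCR and at 148.3, 155.8 and 159.6 in KD. The 3 groups did not overlap. KD lay under WT by -0.94 ± 0.14 (edgeR adjusted p = 9.0e-04) and SCR by -0.51 ± 0.14, which did not pass (edgeR adjusted p = 0.150) but did when only these groups were fitted (0.0496) and without the filter (9.7e-04). The difference of KD from SCR also passed only under those 2 settings, as given above. Without LPS SCR lay under WT by -0.48 with a replicate block (edgeR adjusted p = 0.0269), a call not made without the block. The LPS responses of LINC00685 did not differ by the test. The SCR response minus that of WT was -0.05 ± 0.20, and the KD response minus that of SCR -0.43 ± 0.20 (edgeR adjusted p = 0.953 and 0.648). Of the 428 exonic bases of LINC00685 39.5% match 1 other place of GRCh37 nearly identically. MIR23AHG at -0.63 ± 0.15, MIR17HG at -0.50 ± 0.15 and MIR3142HG, given above, were the other hosts called lower in KD than in WT with LPS, and the MIR17HG call was lost without any 1 of the 6 libraries (adjusted p up to 0.135), that of MIR23AHG without KD library 5 or WT library 6 (up to 0.0820). MIRLET7BHG did not pass there but was called lower with DESeq2 (log2 -0.72, adjusted p = 0.0280). In edgeR it passed with RLE factors (adjusted p = 0.0482), raw library totals (0.0453) and a replicate block (0.0130). It also passed without the filter (0.0255) and when only the compared libraries were fitted (0.00455). LINC02878 lay at 100.5, 93.5 and 111.0 CPM in WT with LPS and at 66.2, 65.5 and 64.6 in KD, a log2 of -0.63 ± 0.19 (edgeR adjusted p = 0.0391) that was also lost without any 1 library (up to 0.162). LINC02904, LINC00649 and LINC00106 were called at -0.57, -0.88 and -0.83, with edgeR adjusted p from 0.0459 up to the threshold, and lost in 6, 5 and 6 of 12 alternatives, each of them without KD library 4, 5 or 6 (adjusted p up to 0.231).

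LINC00487 lay at 12.1, 11.1 and 13.6 CPM in WT without LPS, at 6.12, 8.67 and 4.00 in SCR and at 4.89, 2.23 and 6.13 in KD. Both siRNA groups lay below WT, and KD passed at -1.47 ± 0.32 (edgeR adjusted p = 0.00492) while SCR at -0.98 ± 0.31 did not (edgeR adjusted p = 0.0882), except with DESeq2, without the filter and when only the compared libraries were fitted (adjusted p from 0.0102). LINC01088, which starts 47 bases from PAQR3 on the other strand, was called lower in both, at -0.92 ± 0.23 and -0.83 ± 0.23 (edgeR adjusted p = 0.0318 and 0.0235), calls lost in 5 and 4 of 12 alternatives (up to 0.121 and 0.132), WT libraries 1 and 3 among those left out. LINC01305 was called lower in KD at -0.44 ± 0.11 (edgeR adjusted p = 0.0136), where SCR stood at 0.01 ± 0.11 (edgeR adjusted p = 0.968). The call of LINC01305 was lost without KD library 3 or WT library 3 and when only the compared libraries were fitted (adjusted p up to 0.193). Another 6 members were called lower in KD without LPS, LINC01133 at -0.81, LINC03025 at -0.64, LINC02904 at -0.58, LINC00960 at -0.54, LINC00685 at -0.46 and LINC00662 at -0.44, each lost in at least 5 of 12 alternatives. All of the last 500 exonic bases of LINC03025 and LINC00960 have near-identical copies, at 4 places and 1 place, so that their counts could belong to a copy.

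Of the members higher with an siRNA, LINC01641 changed most. It lay at 45.9, 110.7 and 44.05 CPM in WT without LPS, at 109.3, 130.4 and 127.5 in SCR and at 184.3, 196.6 and 214.5 in KD. The KD libraries lay above all others, and WT library 2 lay among the SCR values. The log2 fold change from WT was 1.58 ± 0.24 for KD (edgeR adjusted p = 2.7e-04), which held under all 12 alternatives, and 0.88 ± 0.24 for SCR (edgeR adjusted p = 0.0437), which was lost with DESeq2 and in 6 other alternatives. With LPS KD lay at 172.1, 134.8 and 202.7 CPM, above WT at 104.5 ± 5.33 and SCR at 102.6 ± 16.9, a log2 of 0.70 ± 0.24 from WT and 0.72 ± 0.23 from SCR that did not pass (edgeR adjusted p = 0.0594 and 0.242). Both passed when only the compared libraries were fitted (adjusted p = 2.3e-04 and 0.0311) and without the filter, and that from WT also with a replicate block (0.0211). The row is annotated at chr1:227581255-227618736, and 441 of its last 500 exonic bases overlap another gene on the same strand that had no count in any library.

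MIR142HG, like LINC01641, lay at least 2 times above both other WT libraries in WT library 2 without LPS, as 5 members did there and 0 to 7 in each library of the study. This count was made for the members only. MIR142HG lay at 3.22, 15.6 and 6.88 CPM in WT, at 12.3, 15.1 and 10.8 in SCR and at 16.1, 22.4 and 27.1 in KD. KD lay above all WT libraries at a log2 of 1.40 ± 0.33 (edgeR adjusted p = 0.00796), a call lost when only these 2 groups were fitted or without WT library 3 (adjusted p up to 0.122). MIR155HG was called higher in SCR at 0.93 ± 0.22 and in KD at 0.95 ± 0.22 (edgeR adjusted p = 0.0251 and 0.00857), and LINC03040 at 0.94 ± 0.23 and 0.79 ± 0.23 (0.0277 and 0.0308, edgeR adjusted p). LINC00938 was called higher in KD at 0.71 ± 0.18 and LINC02169 at 0.46 ± 0.15 (edgeR adjusted p = 0.0131 and 0.0487), calls lost in 4 and 8 of 12 alternatives, both without KD library 1 or WT library 3 (up to 0.107 and 0.179). The SCR call of MIR155HG was lost without SCR library 1 or 3 or any 1 of the WT libraries (adjusted p up to 0.124), its KD call when only the compared libraries were fitted (0.0769), and both calls of LINC03040 were lost in 6 of 12 alternatives (up to 0.138). TNF, which is no member, moved beside MIR155HG, from 15.9 ± 3.01 CPM in WT to 43.2 ± 7.09 in SCR and 43.2 ± 7.52 in KD without LPS, and its part in the result was not tested.

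**Figure D5:**
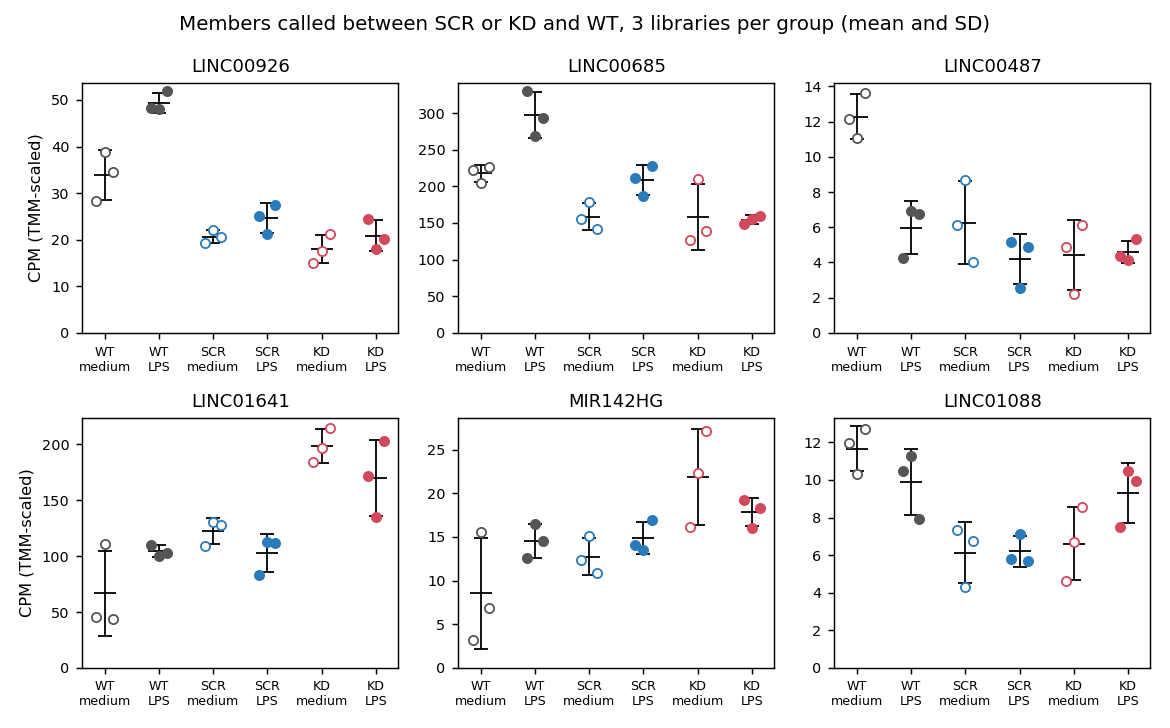
CPM of 6 members called between an siRNA group and WT, in each of the 18 libraries (vertical axis from 0), with open points for medium, filled points for LPS and bars for the mean and SD of 3 libraries. LINC00926 and LINC00685 stand highest in WT with LPS, and LINC01641 is highest in KD, with WT library 2 at 110.7 CPM apart from the other WT libraries with medium.

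Position beside coding genes was compared as a property that the rule had not used. The start of 35 members lay within 10000 bases of a coding start and that of 8 within 1000 bases in divergent orientation, and the median distance was 45271 bases. For 110 members the neighbour was tested too. Across these 110 pairs the log2 fold changes with LPS of member and neighbour had Spearman's rho of 0.05 with WT, 0.14 with SCR and 0.11 with KD libraries, where the pairs share the libraries and genes are no independent replicates. For the 29 pairs within 10000 bases rho was 0.17, 0.01 and 0.04. Of the members called with LPS 17, 18 and 10 had a tested neighbour, of which 3, 4 and 4 were called and 2, 2 and 3 of these in the same direction. Of all genes 14.3%, 17.2% and 11.5% were called with LPS in WT, SCR and KD.

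Among the members named above LINC02610 and HES6, a helix-loop-helix factor 8951 bases away, were both called lower in KD, HES6 at -0.57 ± 0.12, and HES6 was called lower in WT and SCR as well. LINC00847 and MGAT1, an enzyme of N-glycan processing 14674 bases away, were both called lower in WT, MGAT1 at -0.63 ± 0.09. LINC00324 rose in SCR and KD where AURKB, a mitotic kinase 13443 bases away, fell at -0.38 ± 0.13 and -0.62 ± 0.13. The start of LINC01301 lies 121 bases from that of RAB2A on the other strand, and in SCR RAB2A stood at 0.05 ± 0.09 with LPS where LINC01301 fell.

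Of 11 genes of microRNA processing (DROSHA, DGCR8, XPO5, RAN, DICER1, TARBP2, PRKRA and AGO1 to AGO4), all tested, 2 were called with LPS in WT, both lower, 3 in SCR, 2 higher and 1 lower, and 1 in KD, lower. Of all genes 14.3%, 17.2% and 11.5% were called in these responses. DROSHA, the nuclear nuclease, fell at -0.31 ± 0.09 in WT and -0.27 ± 0.09 in KD (edgeR adjusted p = 0.0200 and 0.0487). AGO4 fell in WT at -0.50 ± 0.13 and XPO5 in SCR at -0.40 ± 0.10 (edgeR adjusted p = 0.00942 and 0.0105). DICER1, the cytoplasmic one, and AGO2, the slicing Argonaute, rose in SCR at 0.66 ± 0.17 and 0.75 ± 0.20 (edgeR adjusted p = 0.00864 and 0.0117). In WT and KD DICER1 stood at 0.23 ± 0.17 and 0.11 ± 0.17, AGO2 at 0.35 ± 0.20 and 0.10 ± 0.20, and none passed. In KD against WT 2 of the 11 genes were called lower without LPS, DROSHA at -0.36 ± 0.09 and the Argonaute AGO4 at -0.43 ± 0.13, and 1 with LPS, DROSHA at -0.32 ± 0.09. Of all genes 11.7% and 10.8% were called in these 2 comparisons.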

How the data were processed

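Poly(A) RNA of 18 THP-1 libraries (6 groups of 3) was measured by QuantSeq 3′ sequencing, and the authors deposited raw counts per gene for 63677 Ensembl rows. Per the study's methods and processing notes, reads were aligned with HISAT to GRCh37 and counted with featureCounts over the last 500 bases of each gene; whether strand was used is not given in the sources used here. Symbols were taken from GENCODE v44lift37 (55665 rows matched), as were the gene overlaps and the last 500 exonic bases. The study counted over a modified Ensembl annotation, so that the bases examined for overlaps and copies may differ from those counted. Members and gene lists were chosen with earlier results of these data known.

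Counts were fitted in edgeR 4.0.16 (R 4.3.3): filterByExpr by group (16678 genes), TMM factors (0.959 to 1.04), a quasi-likelihood F test with 1 mean per group over all 18 libraries, and Benjamini-Hochberg adjustment over all genes at 0.05. The code was tested on simulated data. A fold change is log2, its SE the fold change divided by the root of F. Named were all hosts, the members with the smallest adjusted p per direction among those called (up to 8 per LPS response, replicates not overlapping, and up to 5 per other comparison), the 6 with the highest level, those at the 1 CPM limit, the nearest coding genes, and the check and microRNA processing genes. Members called outside these limits were named after their values were seen. Alternatives were DESeq2 1.42.0 (the study's tool), RLE factors, raw library totals, no filter, only the compared libraries, a replicate block, and leaving out each library. Copies were sought at 97% identity or more over at least 75 bases, which 20 members had in their last 500 exonic bases. Total counts of 8206023 to 22344279 per library limit precision.

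Equal replicate numbers paired the samples in 1 comparison, SCR against WT with LPS, where the deviations of same-numbered libraries correlated at 0.163 to 0.261. All 18 count columns were used. The result of 1 marker list is not reported here.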

Additional observations from a re-analysis of the deposited data

How the results depend on the processing

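Of 85 called values 32 held under every alternative, 57 held under every alternative other than leaving out a library, and 0 changed sign. Where only the compared libraries were fitted, the number of members called was 6 for LPS in KD, 3 for KD against SCR with LPS, 4 for KD against WT without LPS and 17 with LPS. Of all genes 1.05% were called there for KD against SCR with LPS, against 0.0% in the fit over all 18 libraries. For KD against WT it was 1.63% without and 18.9% with LPS, against 11.7% and 10.8%. Without the filter the number of members called was 2 and 3 for KD against SCR without and with LPS, 10 and 4 for SCR against WT, and 4 for the difference of the SCR and WT responses. The shares of all genes called were then 0.939%, 1.25%, 2.25%, 1.74% and 0.707%, in the same order. DESeq2 called 1 member for KD against SCR without LPS. Leaving out 1 library at a time gave 10 to 20 members for LPS in WT (10 without WT library 1, 12 without WT library 6), 11 to 18 in SCR (11 without SCR library 1), 7 to 12 in KD, 1 to 5 and 0 to 2 for SCR against WT without and with LPS, 5 to 17 and 3 to 6 for KD against WT, and 0 to 2 for the difference of the SCR and WT responses (2 without WT library 2, LINC01641 and MIR23AHG). The share of all genes called was not computed with a library left out, with DESeq2 or for the fit of the KD libraries only. The cause was not tested.

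With a replicate block SCR against WT without LPS called 10 members, the same 6 and LINC00106, LINC00685, LINC00888 and LINC01133, where 5.6% of all genes were called, and KD against WT called 19 without LPS (16 shared, 14.5% of all genes) and 12 with LPS (10 shared, 15.4% of all genes). The block called the same 2 members for SCR against WT with LPS, the comparison in which the numbers paired the samples, and 0 between KD and SCR. Of all genes 0.809% were called in the former, and 1.1% and 0.51% for KD against SCR without and with LPS. Elsewhere libraries shared only a number. No paired analysis was possible for the LPS responses because unstimulated libraries are numbered 1 to 3 and stimulated ones 4 to 6. The 93 members under 5 CPM, with a median SE of 0.447, limit what could be called at this depth.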
